A study of Saccharomyces cerevisiae with 100 samples.

Results

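Base substitutions that exchange a C:G pair for a G:C pair (C-to-G, the same change as G-to-C read on the opposite strand) were examined in coding sequence in suppressors of rad53∆. Single nucleotide variants (SNVs) were members when they were annotated as synonymous, missense or stop gained, lay on a chromosome other than XII, and had C and G as reference and alternative base in either order. Of the 2904 SNVs called in the suppressors, 434 were C-to-G, and 1707 of any class were in coding sequence outside chromosome XII. The members were 255 of these 1707 (14.9%, exact 95% interval 13.3 to 16.7%), in 245 genes.

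The 95 suppressors were MATa sml1∆::URA3 rad53∆::LEU2 strains, derived from W303 and isolated on plates with methyl methanesulfonate (MMS). They were compared with YJT75, the control strain with the same rad53 and sml1 deletions in W303, so the suppressors and YJT75 all lack RAD53 and SML1. Each strain was sequenced as 1 library, without replicates, and the spread given below is that between suppressors. The values are allele frequencies, the share of reads over a site that hold the alternative base, and the depth behind each value is not given, because the tables hold no read counts.

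MMS is an alkylating agent that methylates purines in double-stranded DNA and also cytosines in single-stranded DNA. Rad53 is the checkpoint kinase that stabilises stalled replication forks in budding yeast, and Sml1 is the inhibitor of ribonucleotide reductase whose loss keeps rad53∆ cells alive. C-to-G changes are transversions, and in yeast Rev1, a translesion polymerase, is known for placing C opposite abasic sites. A change seen as C on the coding (mRNA-like) strand of a gene is seen as G on its template strand, so the systematic name of a gene, which ends in W or C for the strand that is coded, gives the direction of each change relative to transcription.

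The members were found mostly once and at high allele frequency. Of the 255 SNVs, 252 were found in 1 suppressor, 2 in 2 suppressors and 1 in 9 suppressors. The highest allele frequency of a member in the suppressors had a median of 1.0 and reached at least 0.95 in 233 members (91.4%), with 13 members from 0.7 up to 0.95 and 9 under 0.7. In YJT75 the same positions were at 0 for 248 members and from 0.0032 to 0.0064 for the other 7, and since the calls required a carrier at 0.4 or more and YJT75 under 0.1, this gap between carriers and YJT75 was fixed by the calling. In the other 5 classes 1317 of 1452 SNVs reached 0.95 (90.7%).

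C-to-G was the fifth most frequent of 6 classes. The others were T-to-C with 507 SNVs (29.7%), C-to-A with 305 (17.9%), C-to-T with 284 (16.6%), T-to-A with 268 (15.7%) and T-to-G with 88 (5.16%), where each class also holds the same change read on the opposite strand. C-to-G made up 14.9% of the coding SNVs outside chromosome XII, against 10.3% of those in coding sequence of chromosome XII (30 of 291). That difference of 4.63 percentage points (95% interval 0.29 to 8.11) did not pass after adjustment (two-sided Fisher's exact test, adjusted p = 0.0740 over 2 comparisons, unadjusted p = 0.0370). Outside coding sequence on the same chromosomes the share was 16.8% (133 of 790), and the difference of -1.90 points (-5.10 to 1.12) did not pass either (adjusted p = 0.235).

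More of the members changed C to G than G to C on the coding strand. Of the 255 SNVs, 162 had the C on the coding strand and 93 had the G there, so that 63.5% (exact 95% interval 57.3 to 69.4%) were C to G as the gene is read. In genes ending in W the reference strand is the coding strand, and 89 of their 138 members were C to G on it (64.5%). In genes ending in C the order on the reference strand turned round, with 73 reference G against 44 reference C, which again put C on the coding strand in 62.4% of the members there.

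The split was tested over strains with the 252 SNVs found in 1 suppressor only. A suppressor carried 1.68 ± 1.52 SNVs that were C to G on the coding strand, against 0.968 ± 0.973 that were G to C (SD, n = 95), a difference of 0.716 ± 1.76. There were 47 suppressors with more C to G, 23 with more G to C, 14 with equal numbers and 11 with none. The difference passed a two-sided permutation test that swapped the numbers within suppressors (p = 0.000160). On the reference strand, without regard to genes, the C-to-G direction made up 51.98% of the same 252 SNVs, with more C to G in 33 suppressors and more G to C in 35 (permutation p = 0.608). How many C and G the coding strands hold was not counted here, since no genome of this build was used, so the share is not corrected for base composition.

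**Figure D1:**
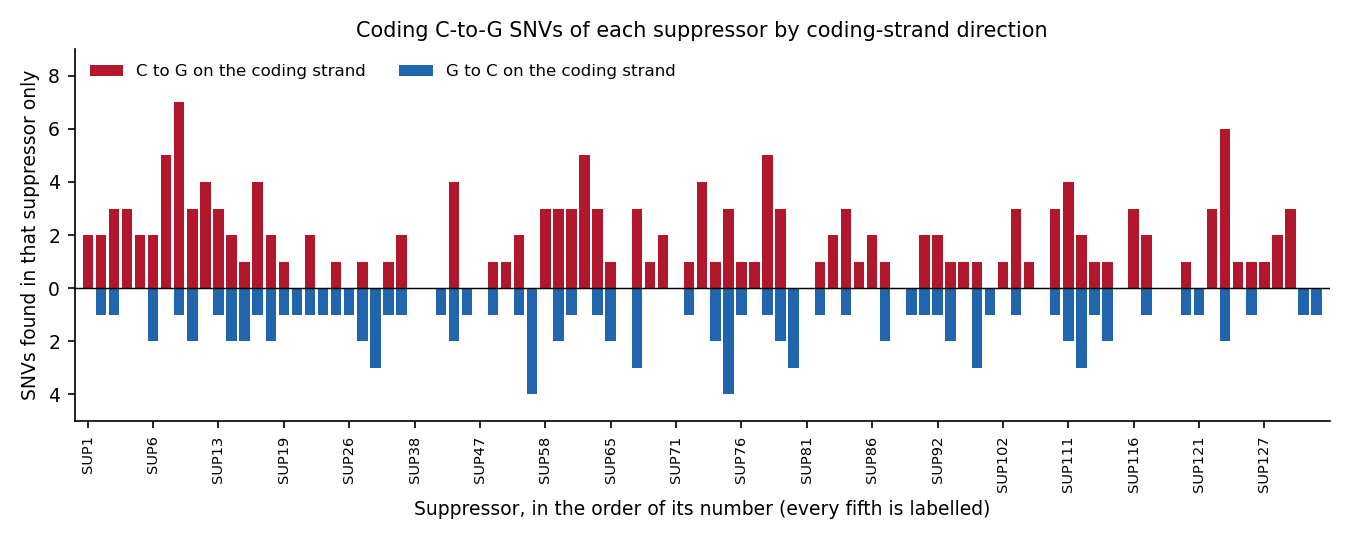
Members found in 1 suppressor only, one bar pair for each of the 95 suppressors, with SNVs that were C to G on the coding strand drawn upward and G to C drawn downward (number of SNVs on the y axis). The upward bars sum to 160 SNVs and the downward bars to 92, and the tallest upward bar is that of SUP8.

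The same direction was seen on most chromosomes and in missense SNVs. More members were C to G than G to C on the coding strand on 12 of the 15 chromosomes, with 21 against 6 on XV, 20 against 8 on X and 19 against 7 on XIII. The numbers were equal on III, and the order was the other way on V with 4 against 5 and on VI with 0 against 1. Missense members were C to G on the coding strand in 133 of 209 cases (63.6%, 56.7 to 70.2%), and synonymous ones in 25 of 42 (59.5%, 43.3 to 74.4%), an interval that includes an equal split.

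Compared with the other classes, the C-to-G members differed in direction from the classes that change a T:A pair and were not shown to differ from the others that change a C:G pair. The pyrimidine of the pair was on the coding strand in 63.5% of C-to-G SNVs, against 57.4% of C-to-A SNVs, a difference of 6.15 points (-1.99 to 14.1, adjusted p = 0.177 by two-sided Fisher's exact test over 5 comparisons). Against C-to-T with 58.1% the difference was 5.43 points (-2.82 to 13.5, adjusted p = 0.217). Both intervals include 0 as well as differences above those measured.

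In the classes that change T:A, the pyrimidine was less often on the coding strand. C-to-G exceeded T-to-A (38.8%) by 24.7 points (adjusted p = 4.66e-08), T-to-C (37.7%) by 25.9 points (adjusted p = 7.91e-11) and T-to-G (44.3%) by 19.2 points (adjusted p = 0.00412). Against the 5 classes together, where 674 of 1452 SNVs (46.4%) had the pyrimidine on the coding strand, the difference was 17.1 points (10.5 to 23.3, p = 4.50e-07, two-sided Fisher's exact test). The classes at T:A start from other bases than C-to-G. These differences therefore also depend on how many of each base the coding strands hold, which was not counted. They also differed by effect. Among missense SNVs the pyrimidine was on the coding strand in 34.7% of T-to-A, 31.3% of T-to-C and 40% of T-to-G. Among synonymous SNVs those shares were 50.9%, 49.7% and 52.4%, near an equal split. The synonymous shares at C:G were 59.5% of C-to-G, 60.8% of C-to-A and 66.97% of C-to-T. The differences between classes within each effect were not tested.

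**Figure D2:**
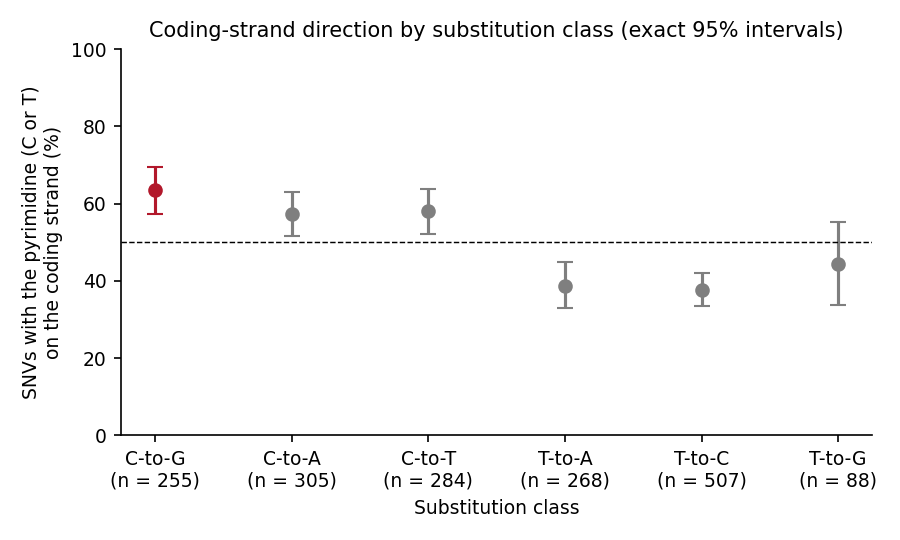
Share of coding SNVs outside chromosome XII whose pyrimidine (C or T) was on the coding strand, in percent, for C-to-G (left) and the other 5 classes, with exact 95% intervals and a dashed line at an equal split. The interval of C-to-G (57.3 to 69.4%) overlaps those of C-to-A and C-to-T and lies above those of T-to-A, T-to-C and T-to-G.

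Most members changed the protein. The 255 SNVs were 209 missense, 42 synonymous and 4 stop gained, so 213 were nonsilent (83.5%, exact 95% interval 78.4 to 87.9%), and 81 of the 95 suppressors carried a nonsilent one. The nonsilent share was higher than in C-to-T (61.6%) by 21.9 points (14.5 to 29.0, adjusted p = 5.87e-08) and higher than in T-to-C (65.5%) by 18.05 points (11.6 to 23.9, adjusted p = 2.77e-07), both by two-sided Fisher's exact test. C-to-T and T-to-C are the transition classes. Among the transversions the difference did not pass against C-to-A (83.3%, difference 0.25 points, -6.05 to 6.38, adjusted p = 1), T-to-A (78.7%, 4.80 points, -1.94 to 11.5, adjusted p = 0.226) or T-to-G (76.1%, 7.39 points, -1.81 to 18.1, adjusted p = 0.226). Within C-to-G the nonsilent share was 84.6% of the SNVs that were C to G on the coding strand and 81.7% of those that were G to C.

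**Figure D3:**
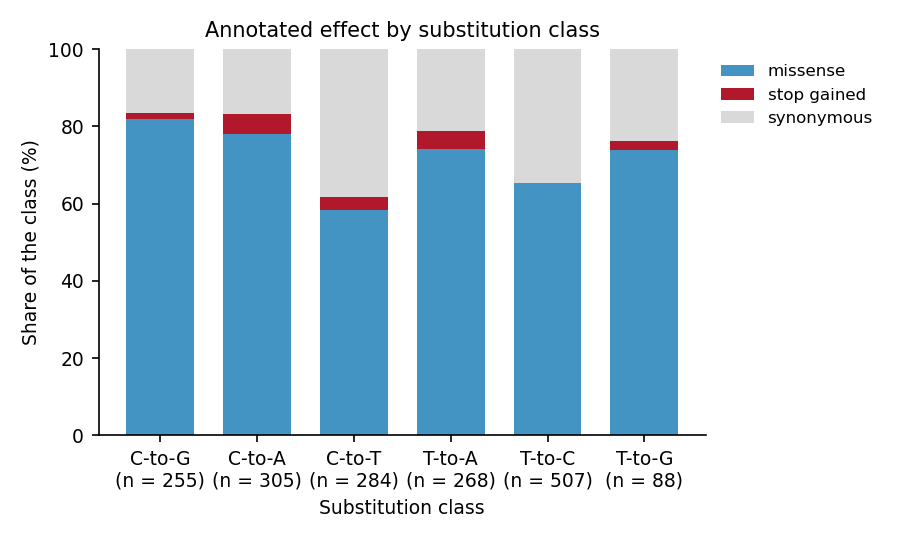
Annotated effect of the coding SNVs outside chromosome XII, as percent of each substitution class, with C-to-G at the left and stacked bars for missense, stop gained and synonymous SNVs. The synonymous part was 16.5% in C-to-G and is largest in the bars of C-to-T and T-to-C.

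The 4 stop gained members were in genes of RNA metabolism, nuclear import and meiosis. PRP6 (YBR055C, chromosome II, G344690C), which codes for a splicing factor of the U4/U6-U5 particle, was changed in SUP59 at an allele frequency of 1.0. NOT3 (YIL038C, chromosome IX, G282412C), a subunit of the CCR4-NOT complex of mRNA deadenylation, was changed in SUP92 at 1.0. HFM1 (YGL251C, chromosome VII, G28374C), a DNA helicase of meiotic recombination, was changed in SUP18 at 1.0. KAP114 (YGL241W, chromosome VII, C48012G), an importin, was changed in SUP70 at 0.820. Positions are those of the sacCer2 reference strand, each written as reference base, position on the chromosome and alternative base, and YJT75 was at 0 at all 4 positions.

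All 4 were C to G on the coding strand. In the genetic code no stop codon holds a C, so a G-to-C change on the coding strand cannot make one. Stop gained SNVs were 1.57% of C-to-G, against 5.25% of C-to-A (16 of 305) and 0% of T-to-C (0 of 507), a class in which the code allows none. Neither difference passed after adjustment (adjusted p = 0.0545 for each, two-sided Fisher's exact test), and against the 5 classes together (2.69%) the p was 0.388. Since T-to-C can hold no stop gained SNV, the direction of its difference was fixed in advance and is not a result.

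The members lay on all 15 chromosomes examined, and no chromosome passed the test for a share unlike that of the other classes. The largest numbers were 33 members on IV, 31 on VII, 28 on X and 27 on XV. On X, there were 28 members beside 94 SNVs of the other classes (22.95% C-to-G), and the chromosome held 11.0% of the members against 6.47% of the other 1452 SNVs (adjusted p = 0.175, unadjusted p = 0.0168). On VI there was 1 member among 41 coding SNVs (2.44%), a missense SNV in MIL1 (YFL034W), and the chromosome held 0.392% of the members against 2.75% of the others (adjusted p = 0.175, unadjusted p = 0.0233). Of the 15 chromosomes, 0 had an adjusted p under 0.05 in two-sided Fisher's exact tests, and these 2 had an unadjusted one.

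**Figure D4:**
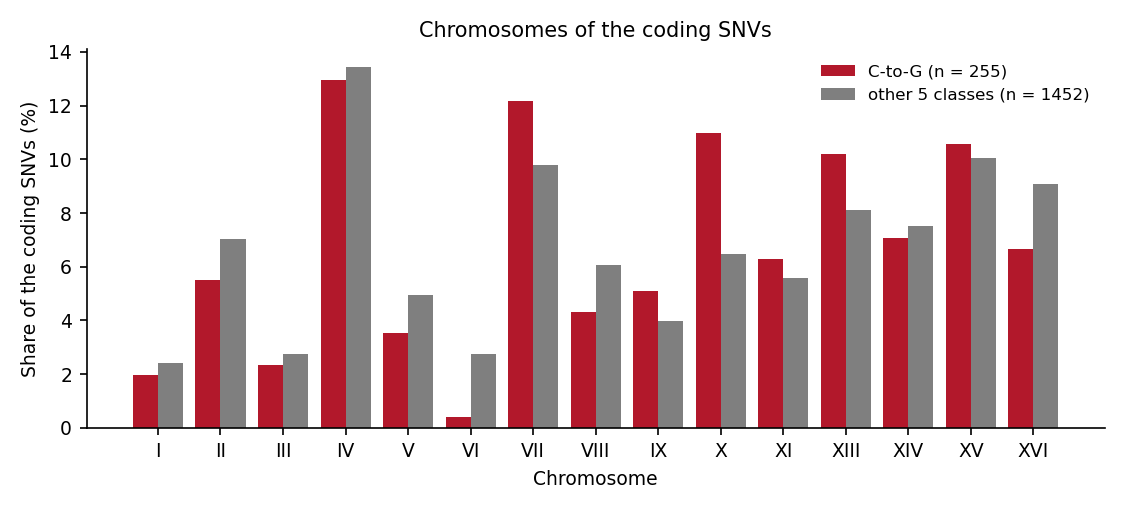
Share of the C-to-G members (left bar of each pair, n = 255) and of the other 5 classes (right bar, n = 1452) on each chromosome other than XII, in percent of the coding SNVs. The bars differ most on X (11.0% against 6.47%), and neither X nor any other chromosome passed the adjusted test.

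Recurrence in a gene was rare. Of the 245 genes, 236 had 1 member, 8 had 2 and YML082W had 3. In YML082W (chromosome XIII), which codes for a putative carbon-sulfur lyase, SUP8 carried the missense SNVs C102673G at 1.0 and C103779G at 0.994, and SUP78 carried the synonymous SNV G103181C at 0.989. In BAP2 (YBR068C, chromosome II), a permease for branched-chain amino acids, G373892C was in SUP106 at 0.991 and G374073C in SUP124 at 0.583. PFK2 (YMR205C, chromosome XIII), the beta subunit of phosphofructokinase, had G672188C in SUP3 at 1.0 and G674215C in SUP54 at 0.992.

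The other genes with 2 members were alike in that each SNV was missense and at or near fixation. FCP1 (YMR277W, chromosome XIII), a phosphatase of the RNA polymerase II C-terminal domain, had C820969G in SUP54 and G821026C in SUP103, both at 1.0. ERC1 (YHR032W, chromosome VIII), a membrane transporter known for ethionine resistance, had C173574G in SUP7 at 1.0 and C174705G in SUP9 at 0.992. In YDL124W (chromosome IV), an NADPH-dependent reductase, PIN4 (YBL051C, chromosome II), which is involved in the DNA damage response and binds Rad53, and YDR109C (chromosome IV), a putative kinase, both SNVs of the gene were in the same suppressor and at 1.0.

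YJL113W (chromosome X), a reading frame of a Ty4 retrotransposon, also had 2 members, G198562C in SUP111 and G200629C, both missense. G200629C was the only member found in more than 2 suppressors: it was at 1.0 in SUP7, SUP8, SUP9, SUP17, SUP18, SUP19, SUP20, SUP21 and SUP22, and at 0 in YJT75. Retrotransposons have near-identical copies elsewhere in the genome, so reads at this frame may come from more than 1 place, which was not tested. The other shared members were C535639G in BFA1 (YJR053W, chromosome X), part of the checkpoint on mitotic exit, at 1.0 in SUP118 and 0.988 in SUP119, and C824281G in PRM15 (YMR278W, chromosome XIII), a phosphoribomutase, at 1.0 in SUP39 and 0.681 in SUP47.

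Of the genes that the study tested by deletion or placed in its pathways, 8 had a C-to-G member. The study chose most of these 40 genes on the same strains, so the count is not independent evidence. Of the 39 that are not on chromosome XII, 35 had a coding SNV, 58 SNVs in all, and 8 of the 58 were C-to-G (13.8%, against 14.9% of all 1707). All 8 were nonsilent, against 83.5% of all members, and 7 of the 8 were C to G on the coding strand, against 63.5%. The study kept only nonsilent SNVs before it chose most of these genes, so the effect of the 8 is not independent evidence either. In the mRNA decay genes they were G255044C in NMD2 (chromosome VIII, SUP2, 1.0) and C635226G in UPF3 (chromosome VII, SUP78, 0.994), both nonsense-mediated decay factors, G177944C in the 5′ exonuclease gene XRN1 (chromosome VII, SUP79, 1.0) and G404407C in the decapping enzyme gene DCP2 (chromosome XIV, SUP91, 1.0). The others were C654131G in BMH2 (chromosome IV, SUP59, 0.994), a 14-3-3 protein, G338030C in DEF1 (chromosome XI, SUP27, 1.0), which acts in the degradation of stalled RNA polymerase II, C591927G in ARP8 (chromosome XV, SUP65, 1.0), a subunit of the INO80 chromatin remodeller, and the stop gained SNV of HFM1 named above. ARP8 was the exception in direction, with G to C on its coding strand. SUP79 also carried another missense SNV in XRN1, T176908C of the T-to-C class, 1036 bp from its C-to-G SNV. In the study, deletion of NMD2, UPF3 or XRN1 suppressed the MMS sensitivity of rad53∆. The study also found that loss of NMD2 raised the MMS survival of RAD53 cells, an effect it describes as not checkpoint-specific. BMH2, DEF1, ARP8 and HFM1 were also tested and are not among the genes it reports as suppressing. DCP2 is named there as an mRNA decay gene and is not in its list of tested deletions.

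In a list of 22 genes of base excision repair, alkylation repair and translesion synthesis, C-to-G made up 4 of 10 coding SNVs, in 6 of the 21 genes that are not on chromosome XII. Other repair and damage response genes are not on this list. Outside it, the missense members in PIN4 (SUP61) and RNR3 (SUP91) were C to G on the coding strand. Those in LCD1 (SUP13), MMS1 (SUP130) and YEN1 (SUP57) were G to C. The synonymous members in DDC1 (SUP73) and POL3 (SUP104) were C to G. These genes outside the list are examples picked after their values were seen, not a full set. With 10 SNVs on the list, the share (40%, against 14.9% of all coding SNVs) is a description. All 4 members on the list were missense and C to G on the coding strand. They were G127877C in NTG1 (chromosome I, SUP117, 1.0), a DNA glycosylase and lyase of base excision repair, C151923G in OGG1 (chromosome XIII, SUP3, 1.0), the 8-oxoguanine glycosylase, G229854C in UNG1 (chromosome XIII, SUP1, 1.0), the uracil glycosylase, and C258308G in SRS2 (chromosome X, SUP93, 0.981), a DNA helicase.

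Suppressors carried a few C-to-G SNVs each. Counting SNVs found in 1 suppressor only, they had 2.65 ± 1.86 (SD, n = 95), the median being 3 and the highest count 8, and 11 suppressors had none. With shared SNVs counted, 88 of the 95 suppressors carried a member. C-to-G made up 14.6 ± 9.73% of a suppressor's SNVs, against 16.8 ± 9.90% for C-to-A, 17.6 ± 13.7% for C-to-T, 15.9 ± 10.4% for T-to-A, 30.5 ± 14.5% for T-to-C and 4.62 ± 5.25% for T-to-G. The share was highest in SUP80, where it was 3 of 6 SNVs (50.0%), and next in SUP65 with 3 of 8 (37.5%). Those strains had few SNVs of any class, and of the strains with 6 or more C-to-G SNVs the share was highest in SUP78 (6 of 18, 33.3%), SUP68 (6 of 19, 31.6%) and SUP124 (8 of 27, 29.6%).

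SUP8 and SUP124 had the most C-to-G SNVs, 8 each, and SUP75 had 7. In SUP8, 7 of the 8 were C to G on the coding strand, among them missense SNVs in CDC53, the cullin of the SCF ubiquitin ligase, VMA5, a subunit of the vacuolar proton pump, and MSK1, the mitochondrial lysyl-tRNA synthetase, and its members were at 0.994 to 1.0. In SUP124 all 8 were missense and 6 were C to G on the coding strand, among them SNVs in TFG1 at 0.591, a subunit of the transcription factor TFIIF, and MET1 at 0.569, while TIM23 at 0.581, the channel of mitochondrial protein import, was G to C. In SUP75 the SNVs were at 0.745 to 1.0, and that in DPB2, a subunit of DNA polymerase epsilon, was at 0.776. Genes in this paragraph were picked after their values were seen.

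Most coding SNVs of SUP124 were under an allele frequency of 0.7, as were most in SUP47 and SUP23. Its 8 members were at 0.569 to 0.632 (median 0.600), and its other 21 coding SNVs outside chromosome XII had a median of 0.580, with 19 of the 21 under 0.7. These 8 were all but 1 of the members under 0.7, and the remaining one was a SNV in NAM9, a mitochondrial ribosomal protein, at 0.413 in SUP77. The share under 0.7 was 3.53% of C-to-G and 4.96% of the other classes, a difference of -1.43 points that did not pass (p = 0.424, two-sided Fisher's exact test). Without SUP124 and SUP8, which has none under 0.7, it was 1 of 239 (0.418%) against 53 of 1411 (3.76%), a difference of -3.34 points with p = 0.00290. SNVs under 0.7 gather in certain strains. In SUP23, 11 of 18 coding SNVs of the other classes were under 0.7. In SUP47, 9 of 10 were, with a median of 0.638. The only C-to-G SNV of SUP47, in PRM15, was at 0.681 there and at 1.0 in SUP39. The test takes the SNVs as independent, so its p-values cannot separate the class from the strains. Without both strains the coding-strand split of the members found in 1 suppressor was 62.3% (permutation p = 0.000640).

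Suppressors with more SNVs of the other classes had more C-to-G SNVs. Over 95 suppressors, the C-to-G count correlated with the count of the other 5 classes with Pearson's r = 0.479 and Spearman's rho = 0.503 (permutation p = 2.00e-05 and adjusted p = 6.00e-05 over 6 relations, for each). Without SUP118, the suppressor farthest from the median of the other classes, and the next farthest, a place that 5 suppressors share, r was 0.446 to 0.496 depending on which of the 5 was left out. SUP118 had 1 SNV of the other classes found in it only, but carried 16 when shared SNVs are counted. With each SNV counted in every suppressor that carries it, r with the other 5 classes was 0.440. By class r was 0.419 with T-to-C, 0.286 with T-to-G, 0.283 with T-to-A, 0.259 with C-to-A and 0.219 with C-to-T, with adjusted permutation p from 6.00e-05 for T-to-C to 0.0342 for C-to-T. The relation with C-to-T did not pass without SUP8 and SUP124 (r = 0.173, adjusted permutation p = 0.103) or with the control at 0 (r = 0.195, p = 0.0593). With each SNV counted in every suppressor that carries it, C-to-A (r = 0.141, adjusted permutation p = 0.175) and T-to-G (r = 0.210, p = 0.0521) did not pass.

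**Figure D5:**
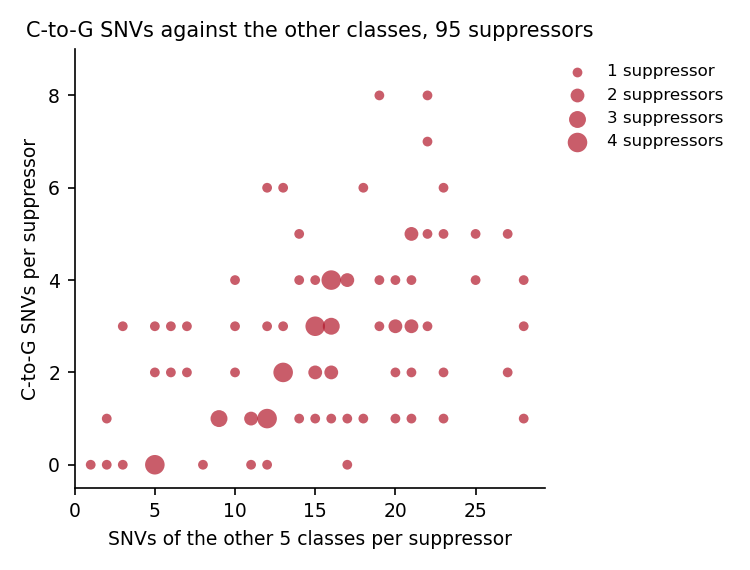
C-to-G SNVs (y axis) against SNVs of the other 5 classes (x axis), both counted in coding sequence outside chromosome XII and found in 1 suppressor only, with the area of a point giving the number of suppressors at that place. The suppressors with 8 C-to-G SNVs, SUP8 and SUP124, lie toward the right, and r was 0.479 over 95 suppressors.

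The suppressors fall into 2 sets by a shared SNV in GUD1, the guanine deaminase gene on chromosome IV, which 49 suppressors carry and 46 do not; this split was chosen after the data were seen. C-to-G made up 120 of 779 SNVs (15.4%) in the suppressors with it and 132 of 898 (14.7%) in those without. On the coding strand the members were 75 C to G and 45 G to C (62.5%, permutation p = 0.0119) in the set with it, and 85 and 47 (64.4%, permutation p = 0.00672) in the set without. The correlation with the other classes was r = 0.456 with it and r = 0.483 without, so the split and the relation with the classes together passed within each set. Of the single classes, T-to-C passed in both sets (r = 0.421 with the GUD1 SNV and 0.408 without), while C-to-T (0.284 and 0.121) and T-to-A (0.232 and 0.296) passed in neither, C-to-A (0.114 and 0.345) only in the set without it and T-to-G (0.376 and 0.206) only in the set with it. The difference between the sets was not tested.

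The share of members that lay near another SNV of the same strain was not shown to differ from that of the other classes together. Of the 252 found in 1 suppressor, 48 (19.05%) had another SNV of that suppressor within 10 kb, against 244 of 1425 SNVs of the other classes (17.1%), a difference of 1.92 points (-2.90 to 7.54, p = 0.471, two-sided Fisher's exact test). The share was higher than in T-to-C (11.1%) by 7.98 points (2.65 to 13.8, adjusted p = 0.0172), and this call was lost under 5 of the alternatives.

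Where C-to-G SNVs of 1 suppressor lay within 10 kb of each other, they mostly had the same base on the reference strand. There were 11 such pairs with a member, at 203 to 9914 bp, and in 10 both SNVs had C, or both had G, as the reference base. In SUP61, 3 SNVs made up 3 of these pairs, G123353C and G124118C in PIN4 and G125669C in SEC17, which codes for a SNARE-disassembly factor, all at 1.0 within 2316 bp. In SUP8 the pair in YML082W was 1106 bp apart, in SUP96 the pair in YDL124W was 264 bp apart (G240475C and G240739C), and in SUP7 C289143G in TOS7 and C293554G in ESC8 on chromosome XV were 4411 bp apart. In SUP30 C104410G in CHC1, the clathrin heavy chain, and C114324G in KEX1, a carboxypeptidase of the Golgi, both on chromosome VII, were 9914 bp apart.

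In the other 3 pairs of this kind 1 of the SNVs was outside coding sequence. They were with FLC3 in SUP46 (2222 bp), BFA1 in SUP118 and SUP119 (6068 bp) and BAP2 in SUP124 (7691 bp). The exception was YDR109C in SUP68, where C674224G and G674427C, 203 bp apart, had different reference bases. Among pairs of other classes the reference base was the same in 6 of 12 C-to-A pairs, 11 of 16 C-to-T pairs, 5 of 7 T-to-C pairs and 3 of 4 T-to-A pairs. The pairs are few and share SNVs, so no test was made. The closest neighbours of a member were 3 bp away in UBP12 in SUP82 (C66880G with C66883T) and 4 bp away in NTG1 in SUP117 (G127877C with A127881C), each with both SNVs at 1.0.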

How the data were processed

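Genomic DNA of the 95 suppressors and of YJT75 was sequenced with paired ends, and the authors aligned the reads to sacCer2 with Novoalign 2.07.14, removed duplicates from the longer reads (the submitters' processing notes name Picard 1.81), counted bases with deepSNV and called SNVs jointly. Calls were kept where the allele frequency was 0.4 or more in a suppressor and under 0.1 in the control, with a minimum number of reads for the alternative base, and the authors annotated effects with snpEff. The deposited values are allele frequencies, fractions of reads, with 10 written for 1.0. A wrong overlapping gene would move an SNV between strands.

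From these values SNVs at 0.4 or more were classed by their pyrimidine base, and W or C in the gene's systematic name gave the coding strand. Of 245 genes, 240 matched a RefSeq table of the R64 assembly, used for names only. Per-suppressor results used SNVs found in 1 suppressor, with two-sided permutation tests (100000 resamples, the smallest p 1e-05). Classes were compared over distinct SNVs with Fisher's exact test. Adjusted p-values are Benjamini-Hochberg values with a threshold of 0.05, over 5 classes, 15 chromosomes, 2 regions or 6 relations. Intervals (95%) are Clopper-Pearson for shares and Newcombe for differences, and cover counting error only. Suppressors that share SNVs may not be independent. Tests were checked on simulated data (Python 3.11.15, scipy 1.17.1).

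Alternatives were a minimum of 0.7, counting shared SNVs, only SNVs found in 1 suppressor, control at 0, chromosome XII added, and distances of 1 and 50 kb. Others left out the strains with the most members, or retrotransposon frames and unmatched genes. The strand splits also had an exact binomial test on distinct SNVs. The coding-strand split and the correlations were also run, unplanned, in the 2 GUD1 sets. Genes named are those with a stop gained member, 2 or more members, a member in 2 or more suppressors, a pair of members or a place on the study or repair list; other genes were picked once their values had been seen. The members, lists and tests were chosen with earlier results of these data known. Neighbouring bases and codon positions were not analysed here, since the tables used give no codon.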

Additional observations from a re-analysis of the deposited data

How the results depend on the processing

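The coding-strand split stayed between 61.9 and 64.5% C to G under 8 alternatives, with its p-values between 1.85e-05 and 0.0119, and its difference from the other 5 classes together between 16.1 and 18.8 points. The nonsilent share stayed 11.2 to 12.6 points above the other classes together, and 57 of 59 alternatives to the main comparisons kept both direction and side of the threshold. The exceptions were in the share of members under an allele frequency of 0.7 against the other classes, which was -1.43 points (p = 0.424) as reported, -5.35 points (p = 0.0274) with chromosome XII added and -3.34 points (p = 0.00290) without SUP8 and SUP124, the suppressors with the most members. SUP124 holds 8 of the 9 members under 0.7, and the cause of the change with chromosome XII was not tested. Because SNVs under 0.7 gather in certain strains, these p-values cannot separate the class from the strains.

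Differences near 0 changed sign without a call. The nonsilent share against C-to-A, 0.25 points as reported, was -0.12 at a minimum of 0.7, -1.62 with chromosome XII added and -0.014 without SUP8 and SUP124. The share of members near another SNV against T-to-G, 0 points as reported, was -0.49 at a minimum of 0.7, -0.33 with the control at 0, -0.095 with chromosome XII added, -2.20 without SUP8 and SUP124, -0.40 at 1 kb and -1.19 at 50 kb. Of the comparisons with single classes, 15 no longer passed under an alternative and 2 newly passed, the stop gained shares against C-to-A and T-to-C with chromosome XII added. The genetic code fixes the direction of the one against T-to-C, so it is not a result. No paired analysis was possible because suppressors and YJT75 share no replicate numbers that pair them; the strand test compares counts within each suppressor. The depth per SNV, which the tables do not give, limits what can be said of low allele frequencies.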

Other observations

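On chromosome XII, which the members leave out, 22 of 30 coding C-to-G SNVs were C to G on the coding strand (73.3%, exact 95% interval 54.1 to 87.7%), against 31 of 58 for C-to-A (53.4%), 28 of 52 for C-to-T (53.8%), 19 of 60 for T-to-A (31.7%) and 32 of 85 for T-to-C (37.6%) with the pyrimidine there.

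The other 2 sequencing experiments of the study hold few such SNVs. YMS6 is a rad53∆ exo1∆ strain by the study's description (its label lists only W303 markers), and its control YGDP939 is sml1∆::URA3 rad53∆::LEU2 exo1∆::HIS3. S64Bα is a suppressor, and W64Aα its control, both MAT alpha with sml1∆::URA3, rad53∆::HIS3, chk1∆::LEU2 and exo1∆::TRP1. In YMS6, 2 of 63 coding SNVs outside chromosome XII were C-to-G, both synonymous in FLO1, a flocculin with internal repeats, with C205940G at 0.788 in YMS6 and 0 in YGDP939, and C206210G at 0.684 in YMS6 and 0.0833 in YGDP939. In S64Bα it was 1 of 12, a missense SNV in ARO80 (C1312828G), an activator of aromatic amino acid catabolism, at 1.0 in S64Bα and 0 in W64Aα.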
